A study of Mus musculus with 6 samples.

Results

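The family of miR-204 and miR-211 was followed in small RNA libraries from the renal inner medulla, the papillary end of the kidney where collecting ducts converge. Members were found by name: every arm of miR-204 or miR-211 in the deposited table of mature miRNAs was taken, which gave 3 of 1081 entries, mmu-miR-204-5p, mmu-miR-204-3p and mmu-miR-211-5p, written below without the species prefix. The groups were DicerAQP2Cre+ mice (3 libraries) and mice labelled control (3 libraries), all at 1 month of age. In DicerAQP2Cre+ animals Dicer1, the gene of the RNase that excises the miRNA duplex from its hairpin, is missing from cells that express aquaporin-2, the vasopressin-regulated water channel of principal cells. Other cells of the inner medulla keep Dicer1, and the labels give no further allele for the controls. Small RNA libraries do not measure the Dicer1 transcript, so the deletion could not be checked per sample. In whole tissue, fewer cells of a type and less miRNA per cell cannot be told apart.

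A miRNA recognises its targets mainly through its seed, the bases next to its 5′ end, so miRNAs with the same seed form a family with largely shared targets. miR-204 is known from retinal pigment epithelium, choroid plexus and kidney, and in human retinal pigment epithelium the family represses TGFBR2 and SNAI2, genes tied to loss of the epithelial state. miR-211 is known mainly from melanocytes, where it is transcribed with its host gene under the pigment cell factor MITF. The hosts, Trpm3 and Trpm1, both encode cation channels of the melastatin TRP group.

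The mature sequences below show what the members share and where they part. They come from RefSeq (GRCm38.p6), run 5′ to 3′, and carry the seed (bases 2 to 8) in capitals.
miR-204-5p: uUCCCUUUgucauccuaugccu
miR-211-5p: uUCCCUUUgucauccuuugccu
miR-204-3p: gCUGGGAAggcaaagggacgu
The first pair had the same seed, UCCCUUU, and were identical at 21 of 22 positions. Their 1 difference was A17U, with positions counted from the 5′ end and the miR-204-5p base given first. Of the 916 table entries whose names matched a RefSeq mature sequence, 1 other entry carried the seed of miR-204-5p, namely miR-211-5p. miR-204-3p has a different seed and so belongs to the family by its hairpin and not by its seed; 0 other matched entries carried its seed.

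The hairpins, with both mature arms in capitals, show that the arms of each precursor face each other across a short loop.
Mir204: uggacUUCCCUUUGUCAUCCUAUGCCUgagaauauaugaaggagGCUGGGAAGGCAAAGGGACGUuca
Mir211: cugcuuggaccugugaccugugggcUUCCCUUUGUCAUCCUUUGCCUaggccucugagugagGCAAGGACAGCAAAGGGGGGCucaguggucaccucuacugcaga
Mir204 lies at chr19:22750605-22750672 and Mir211 at chr7:64205806-64205911, both on the plus strand of GRCm38.p6. The GENCODE M21 annotation of that build places Mir204 within Trpm3 and Mir211 within Trpm1, each on the strand of its host and over 0 host exons, that is, in introns. Between the arms stand 17 bases in Mir204 and 15 in Mir211. The 3p arms differ at 7 of 21 positions, against 1 of 22 in the 5p arms. miR-211-3p was not among the entries found by name, so it has no values here. Neither hairpin has another annotated miRNA hairpin within 10 kb (0 for each), so neither is part of a close cluster.

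The libraries held between 2934851 and 7614853 reads in DicerAQP2Cre+ samples and between 4924091 and 6780624 in controls, counted over all miRNAs. DicerAQP2Cre+ replicate 2 was the shallowest. On the second principal component DicerAQP2Cre+ replicate 3 had a score of 12.5, and the other 5 libraries lay between -5.11 and -0.874. The 5 epithelial marker miRNAs, the 3p arms of the miR-200 family, were all present. They summed to 7133 to 10776 normalized reads in DicerAQP2Cre+ libraries and to 16704 to 17708 in controls. In the limma test described below, at an adjusted p under 0.05, 5 of 5 fell. By that test 4.99% of all 461 tested entries were lower and 3.47% were higher. Of 5 stromal marker entries 2 rose, and the sum of all 5 was 25421 to 36437 in DicerAQP2Cre+ libraries and 21303 to 22716 in controls. That sum left out miR-199a-3p, which shares an entry with miR-199b-3p (log2 fold change 0.71, limma adjusted p = 0.0915). The proximal tubule and cortex list summed to 627 to 1131 in DicerAQP2Cre+ libraries and 1277 to 1340 in controls (1 of 2 tested entries fell), and the neural list to 366 to 451 in DicerAQP2Cre+ libraries and 832 to 1027 in controls (1 of 2 fell). The endothelial, leukocyte and erythroid sums overlapped between the genotypes. The erythroid sum left out miR-486a-5p, which shares an entry with miR-486b-5p (log2 fold change -0.40, limma adjusted p = 0.316). The part of these shifts in the values of miR-204 and miR-211 was not tested.

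miR-204-5p was the family's abundant member, and its level was higher in every DicerAQP2Cre+ library than in any control, although the difference did not pass the test across all miRNAs. It stood at 465, 462 and 646 normalized reads in DicerAQP2Cre+ replicates 1 to 3, and at 378, 347 and 312 in control replicates 1 to 3. Normalized reads are counts divided by a size factor for each library. The highest value came from DicerAQP2Cre+ replicate 3, the library far from the rest on that component. Leaving that library out could not make the genotypes overlap, so their separation without it is no check on its influence. The means were 524 ± 105 in DicerAQP2Cre+ samples and 346 ± 33.4 in controls (SD, n = 3 each). These values rested on 628, 236 and 632 recovered reads in DicerAQP2Cre+ libraries and on 492, 441 and 322 in controls. The interval that counting error alone allows was widest, relative to its value, in DicerAQP2Cre+ replicate 2, at 207 to 268 reads (exact Poisson).

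**Figure D1:**
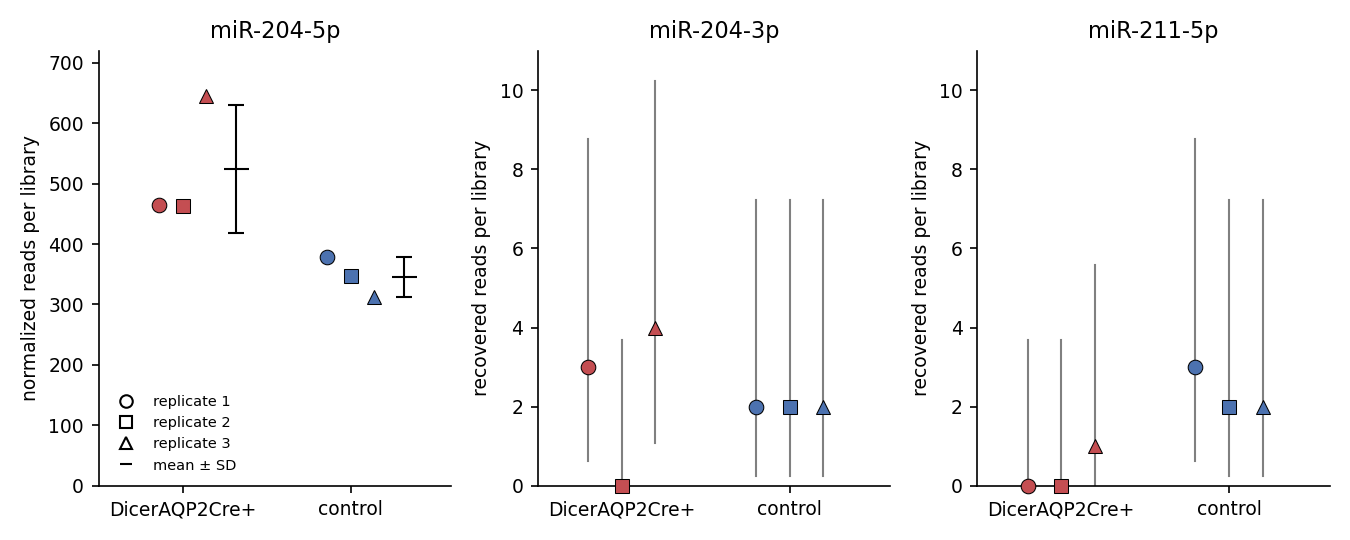
Levels of the 3 family members in each library, with normalized reads for miR-204-5p (left, bars show mean ± SD, n = 3) and recovered reads for miR-204-3p and miR-211-5p (middle and right, grey lines show exact 95% Poisson intervals). miR-204-5p lies between 462 and 646 in DicerAQP2Cre+ libraries and between 312 and 378 in controls, while the other members have 0 to 4 reads and intervals that overlap.

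The log2 fold change of miR-204-5p was 0.59 ± 0.23 (SE), or 1.50-fold higher, with a 95% interval of 1.06-fold to 2.13-fold. In limma, fitted on log2(value + 1) over 461 entries with a mean of at least 5, its unadjusted p was 0.0270 and its Benjamini-Hochberg adjusted p was 0.130. By the same test 16 entries were higher, 3.47% of those tested, and 23 were lower, 4.99%. With libraries set to equal totals the counts were 14 higher and 48 lower, and the median of all log2 fold changes moved to -0.21, against -0.01 with the deposited scaling. miR-204-5p lay 0.60 above that median with the deposited scaling and 0.58 above it with equal totals. A change of scaling moves the median along with miR-204-5p, so this distance cannot show how its fold change depends on scaling. With equal totals its log2 fold change was 0.37, with a 95% interval of -0.12 to 0.87, which included 0. With TMM scaling, another way to set library size, miR-204-5p was at 0.64, with a 95% interval of 0.15 to 1.14. On the recovered reads it was not called by edgeR (adjusted p = 0.0917), which called 4.12% of entries higher, or by DESeq2 (adjusted p = 0.0724), which called 6.07% higher. Genotypes that do not overlap, with DicerAQP2Cre+ higher, were found for 15.6% of tested entries, so this feature of miR-204-5p was not rare. Without DicerAQP2Cre+ replicate 3 the log2 fold change of miR-204-5p was 0.43, with a 95% interval of -0.008 to 0.86, which included 0. The interval also included 0 without control replicate 2 and without control replicate 3. It lay above 0 with any other library left out. The numbers of entries called higher were 0 without control replicate 2, 0 without control replicate 3, 13 without control replicate 1, and 10, 5 and 43 without DicerAQP2Cre+ replicates 1, 2 and 3. For those 2 counts of 0, 40 and 46 entries were higher at an unadjusted limma p under 0.05. The numbers called lower were 0, 0 and 13 in the same order of controls left out, and 31, 10 and 62 without DicerAQP2Cre+ replicates 1, 2 and 3.

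As a share of all miRNA reads, miR-204-5p took 0.00913 ± 0.00171% in DicerAQP2Cre+ samples and 0.00697 ± 0.000378% in controls (SD, n = 3 each). By an exact permutation test (two-sided) p was 0.1, and 3 against 3 libraries can give no smaller value. Without DicerAQP2Cre+ replicate 3 the difference in share was 0.00118 percentage points, against 0.00216 with it. miR-181a-5p, the most abundant miRNA here, took 58.2% to 66.8% of reads in DicerAQP2Cre+ libraries and 43.3% to 52.8% in controls. With its reads left out of the total, the share of miR-204-5p was 0.0245 ± 0.00189% in DicerAQP2Cre+ samples and 0.0135 ± 0.00192% in controls, again with p = 0.1 in the exact two-sided test. The ratio of the mean shares was thus 1.31 over all reads and 1.82 over reads other than miR-181a-5p.

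miR-204-5p was number 129 of 1081 entries in mean abundance, at 435 normalized reads over all libraries. Just above it were miR-874-3p and miR-425-5p, and just below it miR-330-5p and miR-34c-5p, a miRNA induced by p53. None of these 4 passed, with log2 fold changes of -0.27, -0.53, -0.42 and 0.75 and limma adjusted p values of 0.749, 0.148, 0.270 and 0.0565. Among the 50 entries within 25 ranks on either side, 3 rose and 4 fell in limma, with a median log2 fold change of -0.26. Of these 50, 5 had a higher log2 fold change than miR-204-5p. Over all 461 tested entries it was number 79 from the top by log2 fold change and number 95 by p.

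miR-204-3p, the passenger strand of the same hairpin, was near the limit of detection in both genotypes. It had 3, 0 and 4 recovered reads in DicerAQP2Cre+ replicates 1 to 3, against 2 reads in each of the 3 controls. The normalized values overlapped, at 2.22, 0 and 4.09 in DicerAQP2Cre+ libraries and 1.54, 1.57 and 1.94 in controls. A library with 0 reads allows up to 3, which in DicerAQP2Cre+ replicate 2 equals 5.88 normalized reads, more than any value measured for this arm. The entry fell below the filter of a mean of 5 and was not tested.

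The strand ratio of the miR-204 hairpin therefore rested on few 3p reads. Summed over libraries, the 3p arm gave 7 of the hairpin's reads in DicerAQP2Cre+ samples, against 1496 for the 5p arm, and 6 in controls, against 1255. The 3p share was 0.466% in DicerAQP2Cre+ samples (exact 95% binomial interval 0.187% to 0.957%) and 0.476% in controls (0.175% to 1.03%). These shares were close together and their intervals overlapped almost wholly. Per library, the log2 ratio of 5p over 3p, with 1 added to each, was 7.67 ± 1.03 in DicerAQP2Cre+ samples and 7.01 ± 0.25 in controls (SD, n = 3 each). The difference of 0.66 ± 0.61 (SE) gave p = 0.5 in an exact permutation test (two-sided). It was 0.07 without DicerAQP2Cre+ replicate 2, the library with 0 reads of the 3p arm.

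miR-211-5p, which shares its seed with miR-204-5p, was also near 0. DicerAQP2Cre+ libraries gave 0, 0 and 1 recovered reads and control libraries 3, 2 and 2. In normalized reads these were 0, 0 and 1.02 in DicerAQP2Cre+ libraries and 2.31, 1.57 and 1.94 in controls. The genotypes did not overlap, but how many entries below the filter separate in this way was not counted. The levels in controls also lay below or near what a count of 0 allows in the DicerAQP2Cre+ libraries. That limit was 2.22 normalized reads in replicate 1 and 5.88 in replicate 2. The summed counts were 1 read in DicerAQP2Cre+ samples (exact 95% Poisson interval 0.0253 to 5.57) and 7 reads in controls (2.81 to 14.4). These intervals overlapped, but overlap is not a test of a difference, and counts this low leave it unsettled. The entry was below the filter and was not tested in the main fit.

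Of the reads assigned to the 5p arms of both genes together, miR-211-5p made up 0.0668% in DicerAQP2Cre+ samples (exact 95% binomial interval 0.00169% to 0.372%) and 0.555% in controls (0.223% to 1.14%). Nearly all 5p reads with the family seed were thus assigned to miR-204 in both genotypes. Because A17U is the 1 base that tells these miRNAs apart, and the handling of mismatches in the authors' counting is not given in the sources used here, a few reads could have been assigned to the wrong gene. The values of miR-211-5p are uncertain for that reason as well.

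The log2 fold changes of other kidney epithelial miRNAs lay mostly below 0, on the other side from miR-204-5p. All 5 guide strands of the miR-30 family, which is abundant in kidney tubules, had log2 fold changes below 0, with a median of -1.15, and 4 of 5 fell in limma. miR-30d-5p and miR-30a-5p were the most abundant, at log2 fold changes of -1.19 ± 0.25 (limma adjusted p = 0.0162) and -0.80 ± 0.30 (adjusted p = 0.118), and miR-30c-5p, miR-30b-5p and miR-30e-5p fell too. All 5 of the 3p arms of the miR-200 family, which represses Zeb1 and Zeb2, fell, with a median of -1.10. Of these, miR-200b-3p and miR-200c-3p were the most abundant, and miR-141-3p had the lowest log2 fold change, -1.33. The median of all 461 tested entries was -0.01, with 4.99% lower. Both families were known from earlier results of these data to be lower, so their direction here is a description.

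A broader list of kidney-enriched miRNAs (miR-192, miR-194, miR-215, miR-216, miR-196 and miR-10) had 10 tested entries, of which 1 fell, with a median log2 fold change of -0.56. The entry that fell was miR-194-5p, a tubule miRNA, at 86.7 ± 42.6 normalized reads in DicerAQP2Cre+ samples and 220 ± 34.2 in controls (SD, n = 3 each, limma adjusted p = 0.0196). The most abundant, miR-10a-5p and miR-10b-5p of the Hox clusters, did not pass, at -0.65 and -0.58 on the log2 fold change scale. Of the 10 entries 3 lay above 0, all from miR-196, and the highest of them, miR-196b-5p, was at 0.50 ± 0.31 (limma adjusted p = 0.318). The log2 fold change of miR-204-5p was higher than that of each of the 10 entries.

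**Figure D2:**
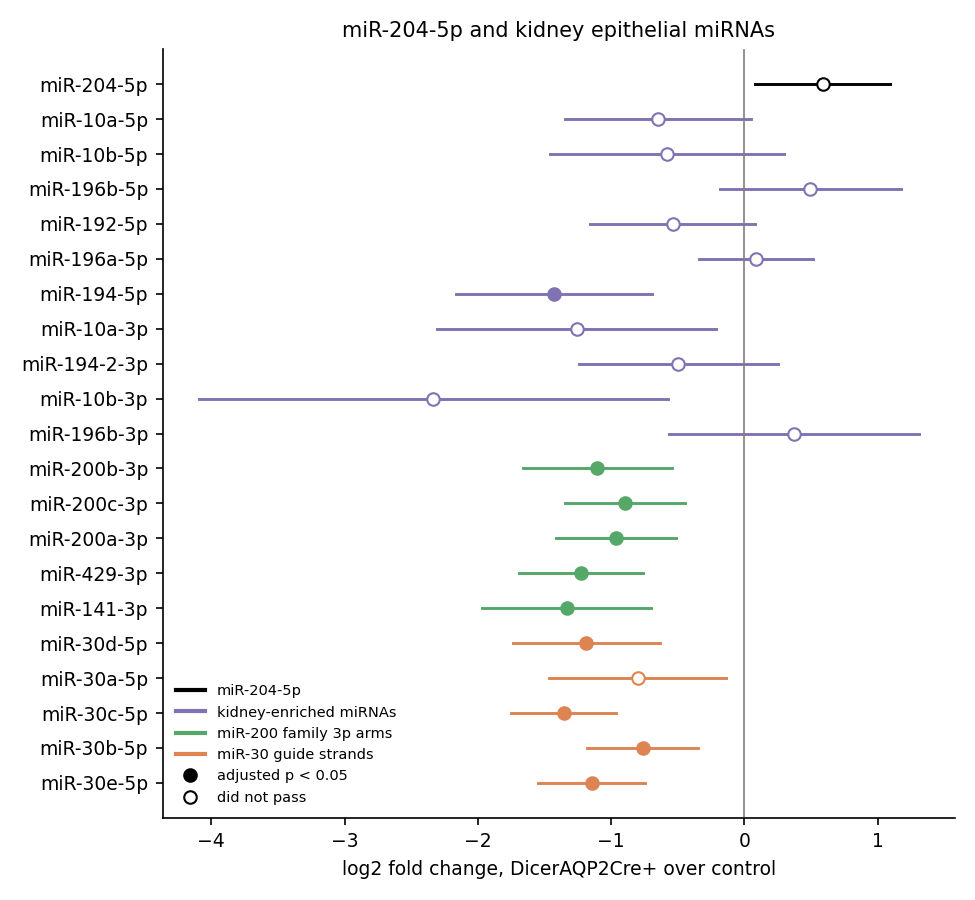
Log2 fold changes (DicerAQP2Cre+ over control) with 95% intervals for miR-204-5p and the tested entries of 3 lists of kidney epithelial miRNAs, each list in order of abundance; filled points passed a limma adjusted p of 0.05. miR-204-5p, at 0.59, lies to the right of every other entry shown, and all miR-30 guide strands and miR-200 family 3p arms lie below 0.

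The level of miR-204-5p relative to these epithelial miRNAs was also taken within each library as a log2 ratio, which does not depend on scaling between libraries. Over the summed miR-30 guide strands, the log2 ratio was -7.91, -8.13 and -8.41 in DicerAQP2Cre+ replicates 1 to 3 and -9.68, -9.73 and -10.02 in control replicates 1 to 3. Every DicerAQP2Cre+ library lay above every control, with means of -8.15 ± 0.25 in DicerAQP2Cre+ samples and -9.81 ± 0.19 in controls (SD, n = 3 each) and a difference of 1.66 ± 0.18 (SE), or 3.17-fold. Over the summed 3p arms of the miR-200 family the ratio was -4.10, -3.94 and -4.06 in DicerAQP2Cre+ libraries and -5.54, -5.67 and -5.74 in controls. This was the tightest of the ratios, at -4.03 ± 0.08 in DicerAQP2Cre+ samples and -5.65 ± 0.10 in controls, a difference of 1.62 ± 0.07 (SE), or 3.07-fold. DicerAQP2Cre+ replicate 3, which was high in miR-204-5p, was also high in the miR-200 sum (10776 against 7977 and 7133 in the other libraries of its genotype), and its ratio lay between theirs. That sum was carried by miR-200b-3p, at 6108 in replicate 3 against 3399 and 3200 in replicates 1 and 2, whereas miR-141-3p was lowest in replicate 3 and miR-200a-3p, at 849 against 766 and 974, lay between the others.

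Over the sum of miR-192-5p and miR-194-5p, known as miRNAs of cortical tubules, the log2 ratio of miR-204-5p was -0.43, -0.86 and -0.81 in DicerAQP2Cre+ libraries and -1.82, -1.88 and -2.04 in controls. The difference was 1.21 ± 0.15 (SE), or 2.32-fold, and the genotypes again did not overlap. These 3 ratios are a description and carry no p, because their denominators were known to be lower in DicerAQP2Cre+ samples when they were chosen. The log2 fold change of miR-204-5p itself was 0.59 with the deposited scaling, 0.37 with equal totals and 0.64 with TMM scaling. The part it makes up of each difference therefore depends on scaling, although the ratio does not.

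**Figure D3:**
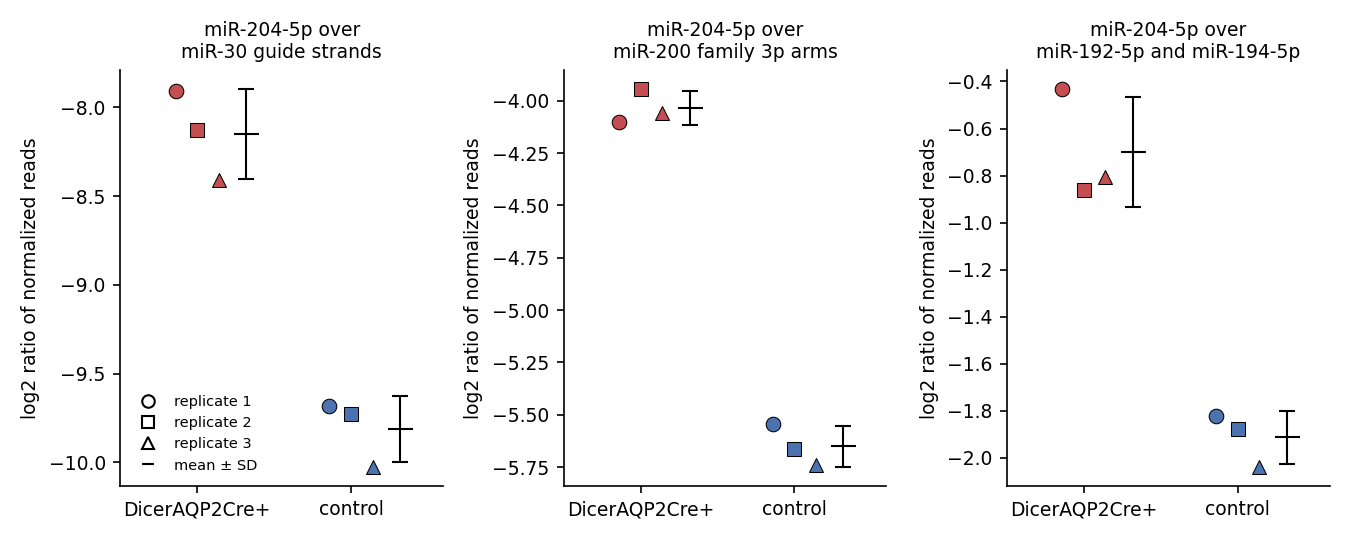
Log2 ratio of normalized reads of miR-204-5p over the summed miR-30 guide strands, the summed 3p arms of the miR-200 family, and miR-192-5p plus miR-194-5p, for each library (bars show mean ± SD, n = 3). In each panel the 3 DicerAQP2Cre+ libraries lie above the 3 controls, by 1.66, 1.62 and 1.21 on average; the vertical axes do not start at 0 and differ between panels.

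The entries most like miR-204-5p were sought among 258 others with a mean of at least 50 normalized reads, by the Pearson correlation of log2(value + 1) over the 6 libraries. These correlations are a description: the libraries share their depth and genotype with every entry, and both the genotype difference and DicerAQP2Cre+ replicate 3 enter them. The 5 most alike were miR-342-3p (r = 0.948), miR-434-3p (0.943) and miR-409-3p (0.936), of which the last 2 come from the imprinted Dlk1-Dio3 locus, then miR-3102-3p (0.924), a mirtron product, and miR-181b-5p (0.914). Of these 5, miR-342-3p was also nearest in log2 fold change, at 0.58 ± 0.23 (limma adjusted p = 0.130). It stood at 1064, 1172 and 1450 normalized reads in DicerAQP2Cre+ libraries against 1019, 737 and 714 in controls. Of these 5, miR-434-3p and miR-409-3p rose in limma, by 1.00 and 1.35 on the log2 scale. The 2 least alike were miR-16-5p (r = -0.982), which represses cyclins and Bcl2, and miR-425-5p (r = -0.981). They stood at -0.71 ± 0.24 and -0.53 ± 0.22 on the log2 fold change scale and did not pass (limma adjusted p = 0.0918 and 0.148).

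**Figure D4:**
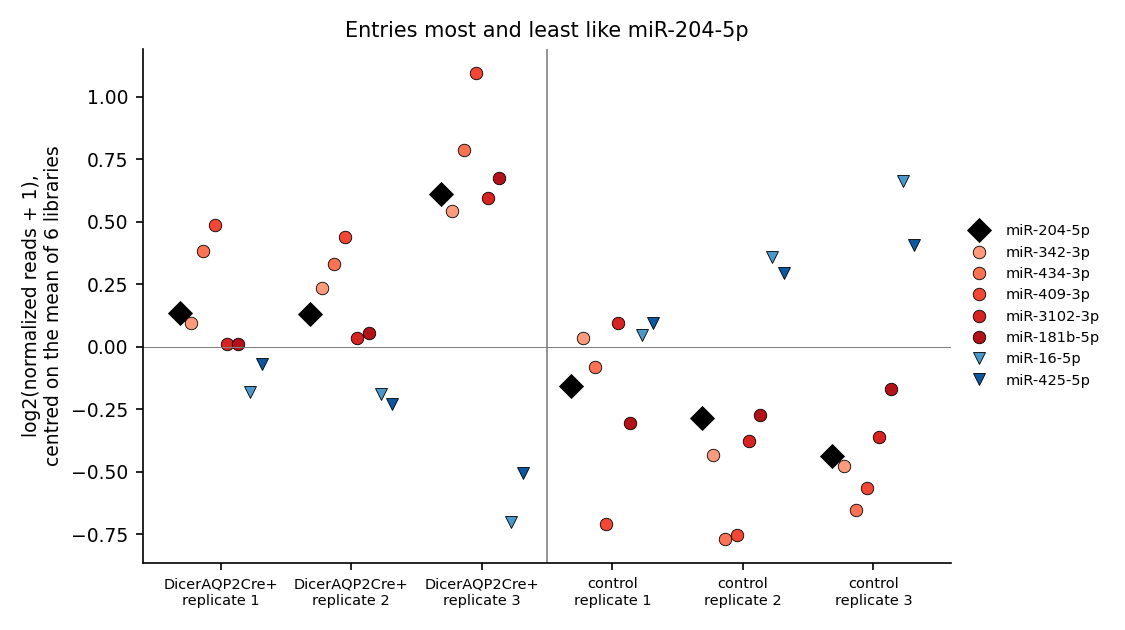
Level of miR-204-5p (diamonds), the 5 entries most like it (circles) and the 2 least like it (triangles) in each library, as log2(normalized reads + 1) centred on each entry's mean over the 6 libraries. miR-204-5p and the entries like it are highest in DicerAQP2Cre+ replicate 3, where miR-16-5p and miR-425-5p are lowest.

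When each entry was taken as its deviation from its own genotype mean, so that the genotype difference no longer entered, the 5 most alike were other miRNAs. They were miR-7046-3p (r = 0.988), miR-1843b-3p (0.963), miR-200a-5p (0.953), miR-30c-2-3p (0.952) and miR-103-3p (0.948). miR-200a-5p and miR-30c-2-3p are passenger strands from the epithelial families above. All 5 were highest within the DicerAQP2Cre+ group in replicate 3, for example miR-200a-5p at 143, 167 and 246 normalized reads in DicerAQP2Cre+ replicates 1 to 3, against 321, 310 and 263 in control replicates 1 to 3. The log2 fold changes of miR-200a-5p and miR-30c-2-3p were -0.72 and -0.48 (limma adjusted p = 0.111 and 0.186). Both were picked as the most alike, and other members of their families went both ways. In DicerAQP2Cre+ replicates 1 to 3, miR-141-3p stood at 425, 253 and 199 normalized reads. miR-30e-5p stood at 2623, 2638 and 2389, and both were lowest in replicate 3. Highest in replicate 3 were the other miR-30 guide strands (miR-30a-5p, miR-30b-5p, miR-30c-5p and miR-30d-5p). The same held for miR-200b-3p, miR-200c-3p and miR-429-3p, while miR-200a-3p lay between its values in the other replicates. Of the 258 entries, 17 had a correlation of deviations above 0.9.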

How the data were processed

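The authors deposited 1 signal value per mature miRNA and library, a count scaled by that library's size factor. FastQC 0.11.3, DESeq2 and mm9 are named in the submitters' processing notes, whereas the sources used here do not give an aligner, counter or miRNA release. Dividing each column by its smallest value above 0 returned whole reads for 100% of values (tolerance 0.01 read). The column names CK01 to CK03 were taken to mean DicerAQP2Cre+ replicates 1 to 3, which is inferred from the names alone and underlies every direction given. RefSeq sequences and GENCODE positions are GRCm38 and were joined to the table by name.

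The main test was limma 3.58.1 (R 4.3.3) with a mean-variance trend, pseudocount 1, two-sided, Benjamini-Hochberg adjustment over 461 entries and a threshold of 0.05. edgeR 4.0.16 and DESeq2 1.42.0 were run on recovered reads. All were tested on simulated data. The changes set there were larger than that of miR-204-5p, and the dispersion was the same for every entry. That run therefore cannot show how a change of its size is handled. Depth per library was 2934851 to 7614853 reads; intervals and floors (3 reads) cover counting error only. The series describes separate mice. Members and lists were chosen with earlier results of these data known. Named entries were the family, its neighbours in abundance, the entries most and least correlated with miR-204-5p, and the most abundant and the called members of each list.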

Additional observations from a re-analysis of the deposited data

How the results depend on the processing

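Over 17 alternatives the log2 fold change of miR-204-5p ran from 0.37 (equal totals) to 0.67 (without DicerAQP2Cre+ replicate 2). Adjusted p values ran from 0.0724 to 0.335, so it passed 0.05 in 0 of them. That all estimates were above 0 was partly fixed in advance. A change of filter, trend, block or threshold cannot move the estimate. Leaving out a library cannot reverse its sign, because the genotypes did not overlap. Leaving out single libraries gave 0.43 to 0.67. Higher and lower calls over all entries, 16 and 23, were 7 and 11 without a mean-variance trend and 30 and 41 at a threshold of 0.1; DESeq2 called 28 higher and equal totals gave 48 lower. Leaving out single libraries gave 0 to 43 higher and 0 to 62 lower calls, with 43 and 50 lower entries at an unadjusted limma p under 0.05 for the 2 counts of 0, without control replicates 2 and 3. The log2 difference of miR-211-5p, -1.21 with a pseudocount of 1, was -1.74 with 0.5 and -0.38 with 5, set by counts of 0 to 3 reads; without a filter its limma adjusted p was 0.330. miR-204-3p and miR-211-5p could not be fitted with the filters that left them out. For the ratios of miR-204-5p over other epithelial miRNAs, leaving out single libraries gave 1.54 to 1.79 for miR-30. It gave 1.57 to 1.67 for miR-200 and 1.08 to 1.29 for miR-192-5p and miR-194-5p. The direction of these ratios could not change in such runs, because the genotypes did not overlap.

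Same-numbered libraries shared only a number: their deviations from genotype means correlated at -0.0589, 0.00541 and 0.0551. With the replicate number as a block, limma called 14 higher and 18 lower. The estimate for miR-204-5p, 0.59, cannot change with such a block, and its adjusted p was 0.171. Depth limits what can be said of miR-204-3p and miR-211-5p, which had at most 4 reads per library.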
